A study of Mus musculus with 6 samples.

Results

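The enzymes that build cholesterol from acetyl-CoA and the genes that control the transcription factor SREBP2 were compared in islets of diabetic db/db mice and db/m controls. The list was defined by gene name and held 27 genes, of which 26 were found among the 44713 genes of the count table; Msmo1 was found under its older symbol Sc4mol, and the expression of Acat2 is not analysed here. RNA-seq was made from rRNA-depleted total RNA of islets from 3 db/db and 3 db/m mice, with 1 library per mouse. The mice were male littermates kept on a normal diet from 5 weeks of age and killed at 10 weeks. The labels give the strain C57BL/6 with the genotypes Lepr-/- and wild type. The study's methods instead give the BKS line BKS.Cg-Dock7m+/+Leprdb/Nju. In that line db/m mice are heterozygous for the db allele, a splicing mutation of the leptin receptor gene present in every cell of the animal.

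Cholesterol is made in the endoplasmic reticulum by a chain of enzymes. Acetyl-CoA is first turned into mevalonate, then into isoprenoid units, squalene, lanosterol and finally cholesterol. When sterols run low, SCAP carries the precursor of SREBP2 to the Golgi, where proteases release its active part, which enters the nucleus and switches on the genes of this chain. INSIG proteins hold SCAP and SREBP2 back when sterols are plentiful. In pancreatic β cells, cholesterol is a component of the membranes of insulin granules, and both excess and lack of it are known to disturb insulin secretion.

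The letters before the transcription start are shown for 5 of these genes, since SREBP2 acts at promoters of this kind: Hmgcs1 and Insig1 hold the core of a sterol regulatory element, and Idi1, Msmo1 and Scap are those with an entry whose unadjusted p below was under 0.05, the first 2 lower and Scap higher in db/db. Each stretch is the 150 bases before the most upstream RefSeq start of the gene (GRCm38.p6, 5′ to 3′ on the strand of the gene). Other starts of a gene were not searched. Capitals mark the core of the sterol regulatory element (CACNCCAC), the CCAAT box (CCAAT) and the GC box (GGGCGG), the last 2 of which bind NF-Y and Sp1, partners of SREBPs. All motifs were searched on both strands, and none of the marked hits overlapped. The stretches lie at chr13:119690201-119690350 on the plus strand for Hmgcs1, at chr5:28071262-28071411 on the plus strand for Insig1, at chr13:8885456-8885605 on the plus strand for Idi1, at chr8:64733579-64733728 on the minus strand for Msmo1 and at chr9:110333138-110333287 on the plus strand for Scap.
Hmgcs1: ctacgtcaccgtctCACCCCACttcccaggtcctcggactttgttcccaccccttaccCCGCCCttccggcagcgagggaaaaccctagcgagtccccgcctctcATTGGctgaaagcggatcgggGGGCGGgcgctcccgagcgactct
Insig1: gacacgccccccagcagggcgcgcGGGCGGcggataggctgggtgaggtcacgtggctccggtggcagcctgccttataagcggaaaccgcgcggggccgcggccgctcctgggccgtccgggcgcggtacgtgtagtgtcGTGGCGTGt
Idi1: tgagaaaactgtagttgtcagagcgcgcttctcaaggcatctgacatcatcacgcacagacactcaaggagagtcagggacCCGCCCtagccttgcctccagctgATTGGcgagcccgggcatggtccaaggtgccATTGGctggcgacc
Msmo1: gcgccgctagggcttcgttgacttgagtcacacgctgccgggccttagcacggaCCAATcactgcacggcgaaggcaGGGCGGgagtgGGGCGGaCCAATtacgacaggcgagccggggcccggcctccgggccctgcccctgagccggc
Scap: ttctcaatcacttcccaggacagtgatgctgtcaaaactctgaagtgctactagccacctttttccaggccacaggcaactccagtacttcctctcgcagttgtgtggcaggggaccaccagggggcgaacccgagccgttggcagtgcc

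Hmgcs1 held 1 core element, 1 CCAAT box and 2 GC boxes in its stretch, and Insig1 held 1 core element and 1 GC box. Idi1 held 2 CCAAT boxes and 1 GC box, and Msmo1 held 2 of each. None of the 3 motifs was found in the Scap stretch. In the 250 bases before the start, CCAAT was found in 19 of the 24 genes with an entry (79.2%) and in 34.5% of 27025 genes. GGGCGG was also found in 19 of 24 (79.2%), against 33.0% of all genes, and both were found together in 16 (66.7%) against 11.4%. The core element was found in 3 (12.5%: Acat2, Hmgcs1 and Insig1) against 5.15% of all genes. G and C made up 56.7% (Scap) to 74.0% (Insig1) of the 5 stretches shown. The 27025 genes were not matched to the members for base composition or expression. The shares therefore do not show a trait particular to sterol genes. The motifs were chosen after the expression values had been seen, and a match describes letters and not binding. Fdps, Fdft1 and Sqle had no entry.

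Between 15641797 and 20614531 counts were obtained per library, and 3 counts corresponded to 0.110 to 0.241 CPM. CPM are counts scaled to a common library size and by the TMM factors of edgeR, which lay between 0.605 (db/db replicate 1) and 1.75 (db/m replicate 1). The leptin receptor gene had 4, 10 and 68 counts in db/db and 37, 25 and 8 in db/m mice. These ranges overlapped, and counts per gene do not check a splicing mutation. Markers of acinar cells (27 genes), the digestive-enzyme cells of the exocrine pancreas, took 70.3% to 76.6% of all counts in db/db and 53.4% to 68.7% in db/m libraries, although the labels name islet cells. Markers of β cells (13 genes) took 0.196% to 0.696% in db/db and 0.861% to 4.53% in db/m libraries, with the highest share in db/m replicate 1. In such bulk samples fewer cells of a type and less RNA per cell cannot be told apart. The part of cell composition in the values below was not tested. Values from a fit with the acinar markers as a covariate are given, but the acinar shares of the groups did not overlap. The covariate was the mean log2(CPM + 1) of these markers and not their share. On the log2 scale, too, most of them were higher in db/db (1 of 27 lower, median log2 fold change 0.69). That fit therefore cannot tell acinar content from genotype.

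No single sterol gene passed the adjusted threshold, and the set as a whole was not tested. By the quasi-likelihood test of edgeR, 0 of 26 had an adjusted p under 0.05, while 0.619% of the 12760 genes tested did. DESeq2 also called 0 of 26, and 5.54% of all genes. All 26 had passed the filter on low counts. At an unadjusted p under 0.05 edgeR gave 4 of 26 genes (15.4%), against 14.9% of all genes. DESeq2 gave the same genes and Tmem97, 5 of 26, against 2086 of 12760 genes. Of the 4 called by edgeR, Idi1, Sqle and Msmo1 were lower in db/db (11.5%, against 9.89% of all genes). Scap was higher (3.85%, against 5.04%), and both shares were near those of all genes.

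The log2 fold change (db/db relative to db/m) was below 0 for 17 genes (65.4%), against 50.1% of all tested genes. Its median was -0.09, and -0.00093 over all tested genes. All 3 db/db libraries lay below all 3 db/m libraries for 5 genes (19.2%, against 12.6% of all genes), and above them for 2 genes (7.69%, against 8.53%); the other 19 overlapped. The 95% intervals of 22 genes spanned 0, but only 12 lay wholly within -1 to 1, so the intervals of the others reached a 2-fold difference. Scaled by library size alone, 24 of 26 genes were lower, with a median of -0.69, while the median of all genes moved to -0.59.

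**Figure D1:**
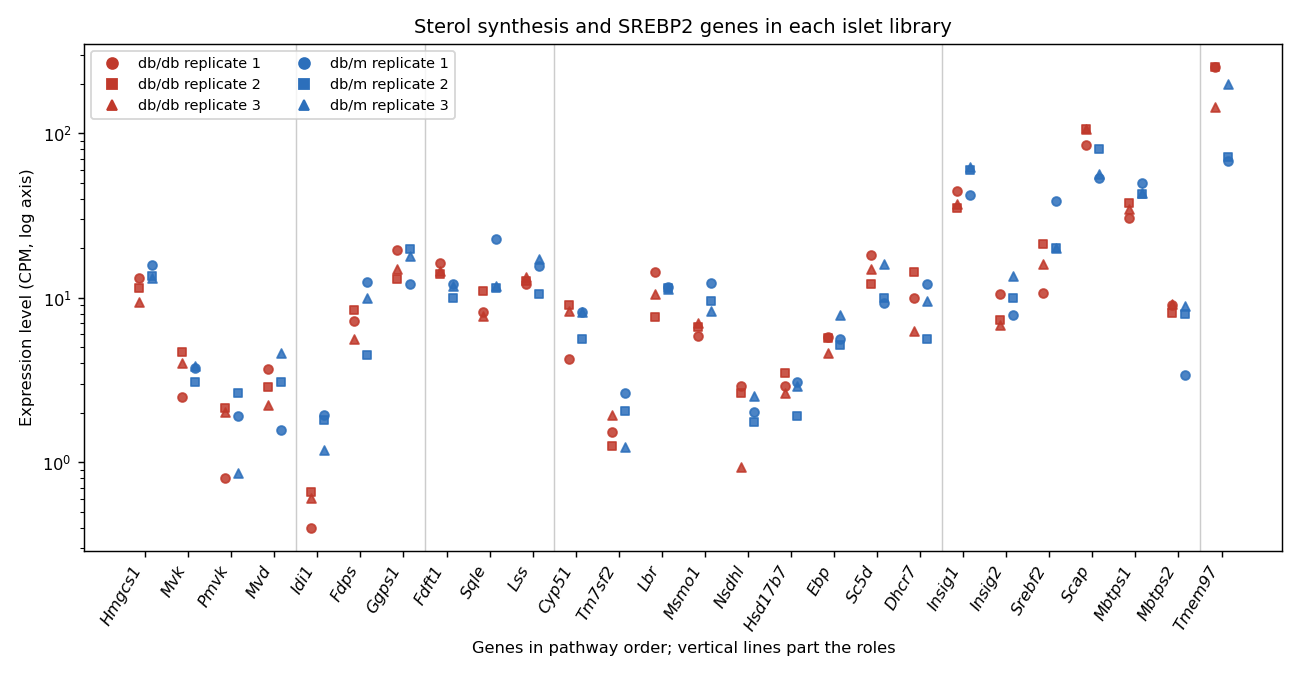
Expression level (CPM, log axis) of the 26 genes in each of the 6 libraries, in pathway order, with db/db in red and db/m in blue and symbols for replicates 1 to 3. For 19 genes the groups overlap; Idi1 is the gene with the widest gap, and Tmem97 and Scap have the highest levels.

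None of the 4 enzymes of the early mevalonate steps had an unadjusted p under 0.05 by edgeR. Hmgcs1, which makes HMG-CoA, had 13.17, 11.5 and 9.41 CPM in db/db and 15.7, 13.6 and 13.21 CPM in db/m libraries. The groups just failed to overlap, as db/db replicate 1 lay next to db/m replicate 3. Its log2 fold change was -0.32 ± 0.23 (SE), with an edgeR adjusted p of 0.538. Mvk and Pmvk, the kinases that phosphorylate mevalonate in turn, had log2 fold changes of 0.07 ± 0.34 and -0.11 ± 0.56. For Mvd, which removes the carboxyl group, it was -0.07 ± 0.45. Mvd shares 30.6% of its exon bases with Gm51557 on the other strand, and whether the counting used strand is not given in the sources used here.

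Among the isoprenoid enzymes Idi1 was the gene with the largest difference of all 26. It encodes the isomerase that interconverts the building blocks of isoprenoids. Its raw counts were 5, 11 and 9 in db/db and 53, 31 and 22 in db/m libraries. These gave 0.401, 0.658 and 0.605 CPM in db/db and 1.95, 1.81 and 1.19 CPM in db/m libraries. The highest db/db library was well below the lowest db/m library, but its counts in the db/db libraries were the lowest of the 26 genes. The log2 fold change was -1.55 ± 0.51 (95% interval -2.70 to -0.40), with an unadjusted p of 0.0138 and an adjusted p of 0.203 by edgeR. Without db/m replicate 1 it was -1.39, and with the acinar markers as a covariate -1.15, at unadjusted p of 0.0508 and 0.0890 by edgeR. Fdps, which joins these units to farnesyl diphosphate, had a log2 fold change of -0.34 ± 0.37, and Ggps1, which lengthens that product for protein prenylation, -0.07 ± 0.27. Both overlapped between groups.

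The enzymes from farnesyl diphosphate to lanosterol did not share a direction. Sqle, the squalene epoxidase and a rate-limiting enzyme of the chain, had 8.19, 11.0 and 7.73 CPM in db/db and 22.9, 11.4 and 11.8 CPM in db/m libraries. The db/m value of replicate 1 stood far above the rest, and db/db replicate 2 came close to the other db/m libraries without reaching them. Sqle had a log2 fold change of -0.78 ± 0.32, with an unadjusted p of 0.0391 and an adjusted p of 0.304 by edgeR. It was -0.35 without db/m replicate 1 (unadjusted p of 0.238) and -0.14 with the acinar covariate.

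Fdft1, the squalene synthase, had 16.2, 13.9 and 14.5 CPM in db/db and 12.1, 9.90 and 11.8 CPM in db/m libraries. Every db/db library was above every db/m library. For Fdft1 the log2 fold change was 0.40 ± 0.22 with an adjusted p of 0.433 by edgeR, and with library size alone it was -0.23. Fdft1 shares 20.9% of its exon bases with Ctsb, a lysosomal protease gene on the other strand, so its counts are uncertain. Lss, which closes the rings of lanosterol and shares 6.0% of its exon bases with 4930483K19Rik, had a log2 fold change of -0.18 ± 0.25.

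Of the 9 genes from lanosterol to cholesterol, Msmo1 had the largest difference. It encodes the oxidase that starts the removal of the methyl groups left on the sterol ring after Cyp51 has acted. Msmo1 had 5.86, 6.64 and 6.99 CPM in db/db and 12.3, 9.49 and 8.28 CPM in db/m libraries. The db/db libraries lay close together below all db/m libraries. This gave a log2 fold change of -0.63 ± 0.25, with an unadjusted p of 0.0349 and an adjusted p of 0.289 by edgeR. Without db/m replicate 1 it was -0.43, and with the acinar covariate -0.30, both with an unadjusted p over the threshold. Nsdhl and Hsd17b7, the next enzymes of the same removal, had log2 fold changes of 0.03 ± 0.49 and 0.18 ± 0.36, and the ranges overlapped. Their 95% intervals (-1.07 to 1.13 and -0.63 to 0.98) reached the Msmo1 value, and a difference from Msmo1 was not tested.

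The other 6 genes of this stretch overlapped as well. Cyp51, the lanosterol demethylase, was at -0.02 ± 0.33 on the log2 scale. Tm7sf2 and Lbr, which both reduce the product of Cyp51, were at -0.33 ± 0.46 and -0.08 ± 0.27. Ebp, a sterol isomerase, was at -0.22 ± 0.28. Sc5d, a desaturase, and Dhcr7, which reduces 7-dehydrocholesterol, were on the other side, at 0.35 ± 0.28 and 0.15 ± 0.37.

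The genes that control SREBP2 had fold changes in both directions, and only Scap had an unadjusted p under 0.05. Srebf2, the gene of SREBP2, had 10.8, 21.1 and 15.9 CPM in db/db and 38.6, 19.9 and 20.1 CPM in db/m libraries. The groups overlapped, and db/m replicate 1 was again far above the other libraries. The log2 fold change was -0.72 ± 0.35 with an unadjusted p of 0.0681 and an adjusted p of 0.372 by edgeR. It was -0.30 without db/m replicate 1 and 0.026 with the acinar covariate.

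Scap, the escort of SREBP2 to the Golgi, had 85.3, 106.0 and 105.8 CPM in db/db and 53.4, 80.4 and 56.5 CPM in db/m libraries. All db/db libraries were higher than all db/m libraries, with db/db replicate 1 and db/m replicate 2 nearest. The difference was 0.64 ± 0.25 on the log2 scale, with an unadjusted p of 0.0314 and an adjusted p of 0.281 by edgeR. With library size alone it was 0.12, and with the acinar covariate 0.60 (unadjusted p of 0.745 and 0.0652 by edgeR). Without db/m replicate 1 it was 0.55 (unadjusted p of 0.0732 by edgeR). Across all settings, the main fit included, 9 of 16 gave Scap an unadjusted p under 0.05. Mbtps1, the protease of the first cut in SREBPs, had 30.5, 37.8 and 34.7 CPM in db/db and 49.8, 42.9 and 43.4 CPM in db/m libraries. The groups did not overlap, at a log2 fold change of -0.40 ± 0.21 (adjusted p of 0.419 by edgeR). Mbtps2, the protease of the next cut, was at 0.38 ± 0.36 with overlapping groups.

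Insig1, itself a target of SREBP2, had 44.4, 35.2 and 37.1 CPM in db/db and 42.0, 59.9 and 61.9 CPM in db/m libraries. Only db/m replicate 1 fell within the db/db range. The log2 fold change was -0.49 ± 0.24 with an unadjusted p of 0.0721 and an adjusted p of 0.379 by edgeR. In contrast to Sqle and Srebf2, it was larger in size without db/m replicate 1 (-0.62, unadjusted p of 0.0238 by edgeR). It was also larger with the acinar covariate (-0.84, unadjusted p of 0.00401 and adjusted p of 0.191 by edgeR). It was smaller without db/m replicate 2 or 3 (-0.39 and -0.38, unadjusted p of 0.205 and 0.189 by edgeR). Leaving out db/db replicate 2 or 3 also made it smaller (-0.42 and -0.45). Across all settings, the main fit included, 3 of 16 gave Insig1 an unadjusted p under 0.05. Insig2, its paralog, was at -0.35 ± 0.30.

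**Figure D2:**
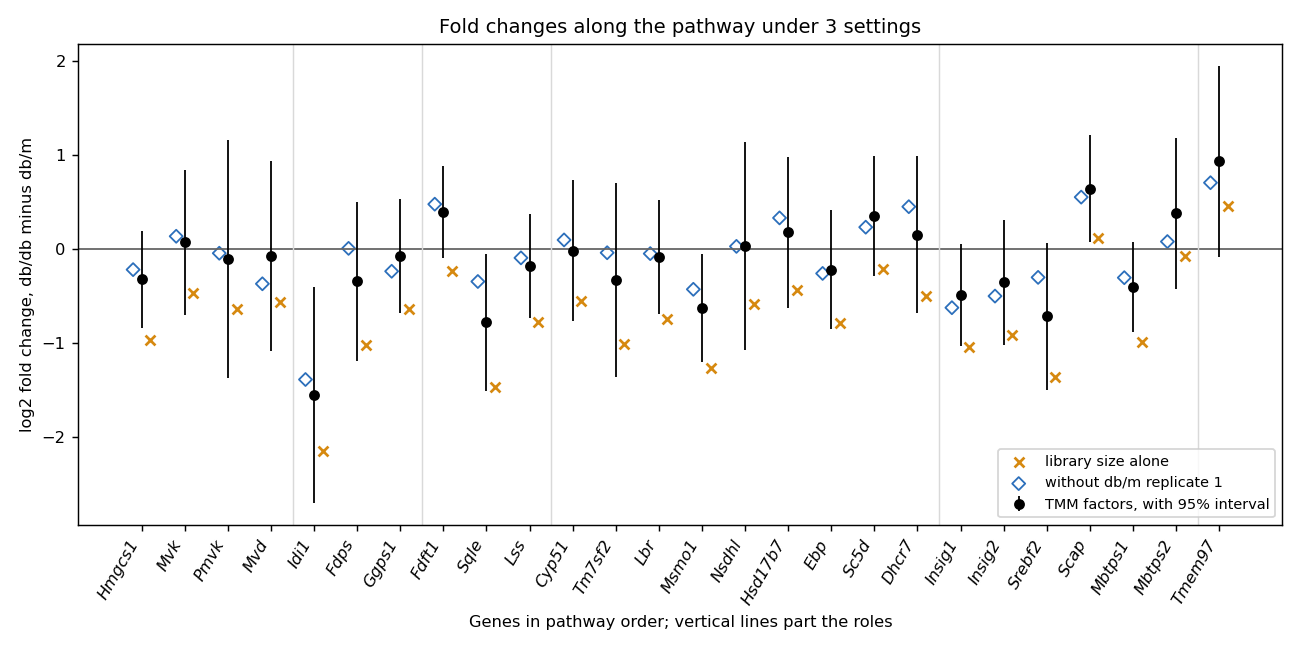
Log2 fold change (db/db minus db/m) of the 26 genes in pathway order with the 95% interval under TMM factors (black), without db/m replicate 1 (blue diamonds) and scaled by library size alone (orange crosses). The intervals of Idi1, Sqle, Msmo1 and Scap exclude 0 before adjustment, Sqle and Srebf2 move toward 0 without db/m replicate 1, and library size alone shifts every gene down.

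Tmem97, a sterol-regulated membrane protein outside the synthesis chain, had the highest level. It had 252.2, 251.2 and 144.0 CPM in db/db and 68.0, 71.6 and 199.2 CPM in db/m libraries. Replicate 3 of each group lay on the side of the other group, so the groups overlapped. The difference was 0.93 ± 0.45 on the log2 scale, with an unadjusted p of 0.0675 and an adjusted p of 0.372 by edgeR. By DESeq2 the unadjusted p was 0.0294 and the adjusted p 0.227. Without db/m replicate 3 the log2 fold change was 1.64 with an adjusted p of 0.0539 by edgeR. That was the smallest adjusted p of any of the 26 genes in any setting. With the acinar covariate the log2 fold change was 0.41.

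Single libraries carried several of these values. Of the 26 genes, 8 had their highest level in db/m replicate 1, the library with the lowest acinar and the highest β-cell share, and 6 had their lowest level there. The same counts over all genes are not given here, so these are not read as particular to the 26 genes. Without db/m replicate 1, 1 of 26 had an unadjusted p under 0.05 by edgeR (Insig1), against 1404 of all 12984 genes tested. With the acinar covariate 2 of 26 had one, Insig1 and Insig2, against 1397 of 12760 genes. Without db/m replicate 2 the count was 2, against 1500 of 13440 genes. Without db/db replicate 1, 2 or 3 it was 2, 3 and 1, against 1500 of 13735, 1858 of 13535 and 1458 of 13492 genes. Without db/m replicate 3 it was 6, against 2703 of 13640 genes. The count over all genes thus also changed with the library left out.

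**Figure D3:**
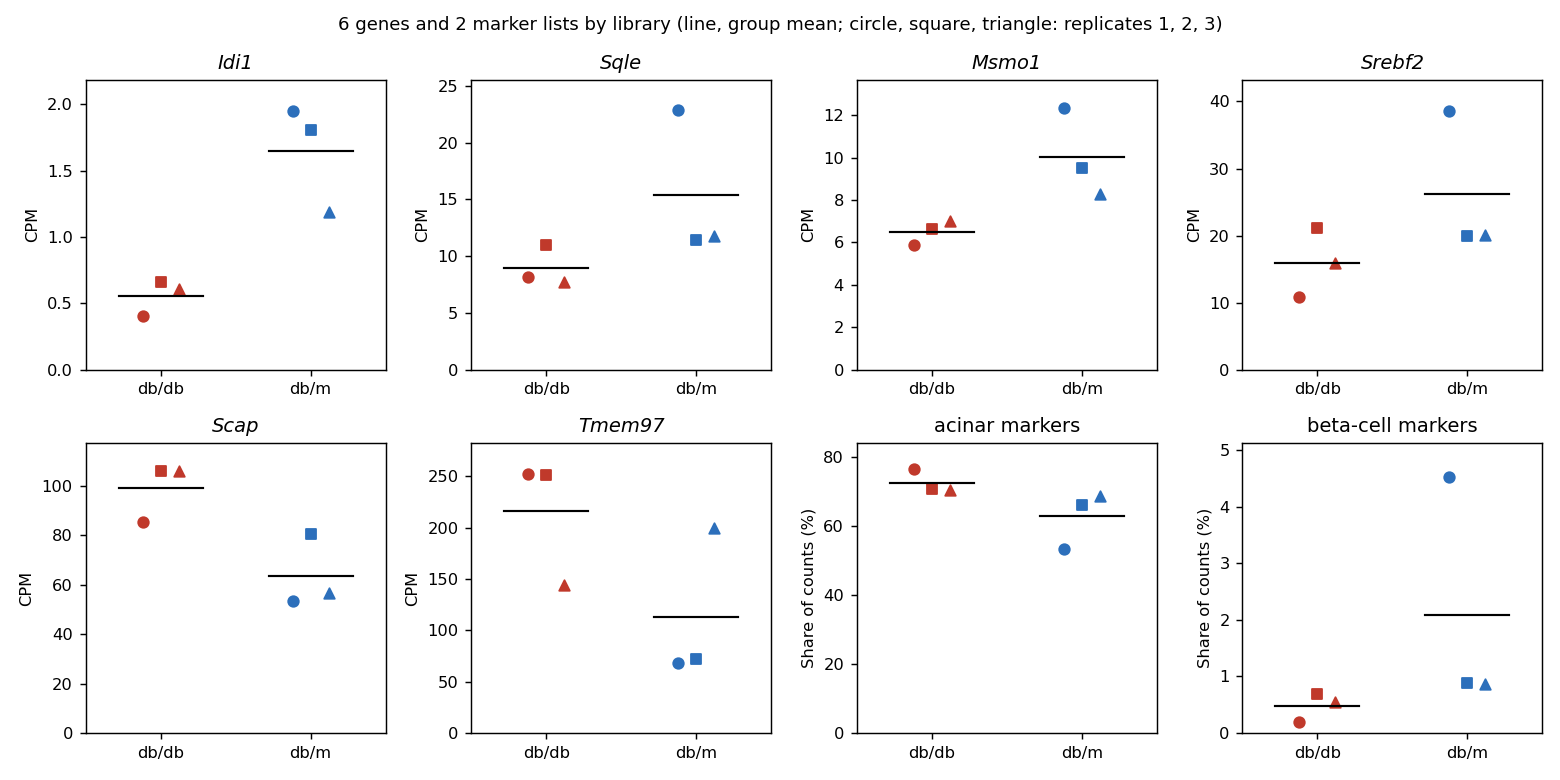
Levels in each library of 6 genes (CPM) and of the acinar and β-cell markers (percent of counts), with circles, squares and triangles for replicates 1, 2 and 3 and lines for group means. Db/m replicate 1 has the highest Sqle, Msmo1 and Srebf2 levels and, with 53.4% acinar and 4.53% β-cell counts, stands apart on both marker lists.

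Per length of the longest RefSeq transcript, the levels of the genes spanned from 129 CPM per kb for Tmem97 to 0.322 for Idi1 (median of the 6 libraries). Scap followed at 19.6, Insig1 at 16.3 and Mbtps1 at 9.22 CPM per kb. In this order of levels, 23 of 25 neighbouring pairs had ranges over the 6 libraries that overlapped. The exceptions were Tmem97 above Scap and Insig1 above Mbtps1, where the upper gene was higher in 6 of 6 libraries.

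**Figure D4:**
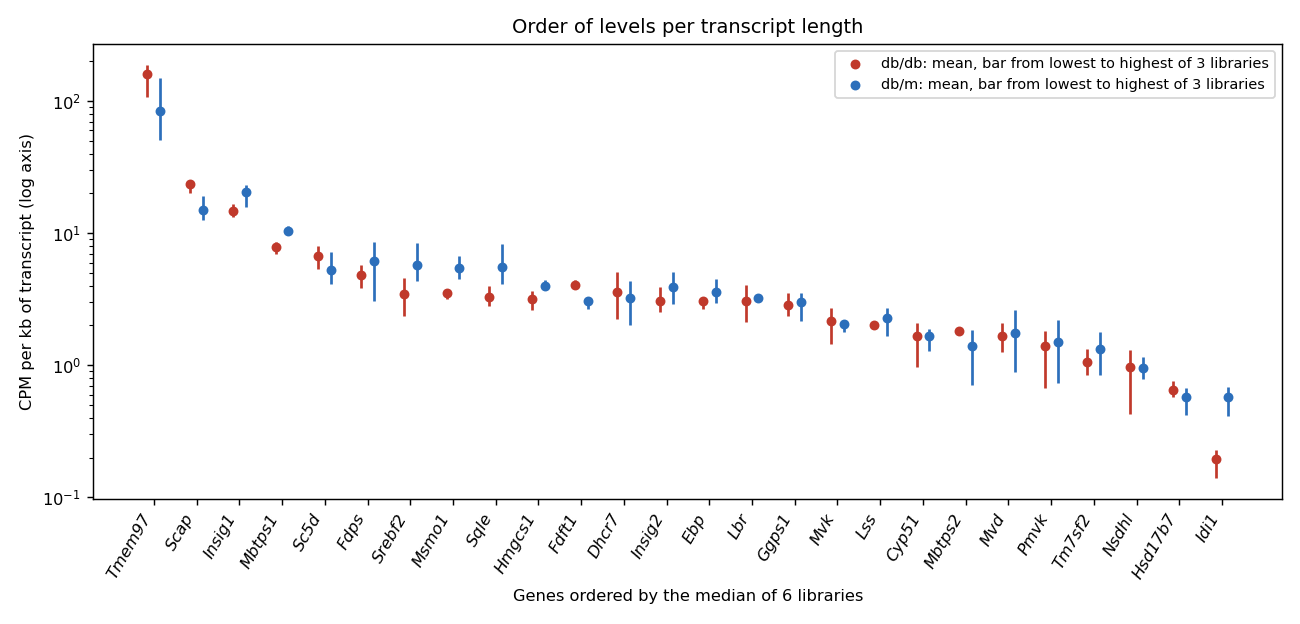
Level per kb of transcript (log axis) of the 26 genes in the order of the median of 6 libraries, with the mean (point) and the lowest and highest (bar) of 3 libraries per group, db/db in red and db/m in blue. Tmem97 stands above the rest and Idi1 is lowest, with its db/db bar below its db/m bar.

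For 2 pairs of genes with the same role, the balance between the partners was compared. Insig1 took 83.0% ± 1.87 (SD, n = 3) of Insig1 and Insig2 per kb in db/db and 84.2% ± 1.87 (n = 3) in db/m libraries, a difference of -1.25 points (two-sided exact permutation test, p = 0.5). Single libraries lay between 81.0% (exact 95% interval 77.9% to 83.9%) and 85.9% (83.8% to 87.8%). Tm7sf2 took 26.5% ± 5.52 of Tm7sf2 and Lbr in db/db and 28.8% ± 7.27 in db/m libraries (exact permutation test, p = 0.7, n = 3 each). The smallest p that 3 against 3 libraries allow is 0.1. Neither balance differed by more than the spread between replicates.

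Lists of genes around the pathway were read in the same fit. Of 51 tested genes for precursor supply, sterol-dependent degradation, isoprenoid branches and sterol uptake, edgeR called 0 at an adjusted p under 0.05, with a median log2 fold change of -0.02. At an unadjusted p under 0.05, 4 were lower (7.84%, against 9.89% of all genes) and 1 was higher (1.96%, against 5.04%), so neither share exceeded that of all genes. DESeq2 called 1 of 51 at an adjusted p under 0.05 (Gramd1b, adjusted p of 0.0491), against 5.54% of all genes. With no filter on low counts edgeR called 3 of 51, against 3.78% of all genes. These were Gramd1b, Lpin1 and Por (adjusted p of 0.0115, 0.0230 and 0.00247 by edgeR).

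Acly, which supplies acetyl-CoA from citrate, was at -0.94 ± 0.37 on the log2 scale, at -0.44 without db/m replicate 1 and at -0.16 with the acinar covariate. Rnf145, a ubiquitin ligase of sterol-dependent degradation, was at -0.68 ± 0.22, with the groups not overlapping, and at -0.41 with the acinar covariate. Lpin1, a phosphatidate phosphatase, was at -1.13 ± 0.40 and at -0.49 with the acinar covariate. For these 3 genes the acinar covariate ended the unadjusted call (p of 0.551, 0.116 and 0.227 by edgeR). Gramd1b, which carries cholesterol from the plasma membrane to the endoplasmic reticulum, was at 1.23 ± 0.39, with the groups not overlapping. It was at 0.72 with library size alone (unadjusted p of 0.141 by edgeR), and with the acinar covariate its unadjusted p was 0.0775. Por, the reductase that feeds electrons to Cyp51 and Sqle, was at -1.99 ± 0.83, but this rested on db/m replicate 2 and was -0.0087 without it.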

How the data were processed

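Whole-transcriptome libraries of islets from 3 db/db and 3 db/m mice were analysed from the raw counts of reads per gene that the authors deposited, without normalization. The study's methods name TopHat 2.0.14 for mapping to mm10, and the submitters' processing notes name HISAT2 2.0.4; the counting program, the annotation and the use of strand are not given in the sources used here. In R 4.3.3, edgeR 4.0.16 was used for the filter on low counts (filterByExpr), the TMM factors and the quasi-likelihood test. P-values were adjusted by the Benjamini-Hochberg method across the 12760 genes that passed, at a threshold of 0.05. Each SE was derived from the log2 fold change and its F statistic. Shares were compared by exact permutation tests, and Clopper-Pearson intervals cover counting error only. No libraries of a group agreed within sampling noise (chi-square over degrees of freedom, 26.5 to 147). The edgeR and DESeq2 fits were also run on simulated counts with 200 changed genes. The planted changes were larger than any log2 fold change of the 26 genes, so this check does not cover differences of the size reported here.

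The members, lists and alternatives were chosen with earlier results of these data known. Named genes were all members in the table, other pathway genes with an unadjusted p under 0.05, and the leptin receptor gene; some genes of the pathway are not reported here. Alternatives were DESeq2 1.42.0 and its size factors, library size alone, upper-quartile factors, other count filters, a replicate block, omission of genes that took 1% of a library, the mean log2(CPM + 1) of acinar markers as a covariate, and leaving out each mouse. Lengths, positions and promoters came from RefSeq (GRCm38.p6), with Python 3.11.15, scipy 1.17.1 and matplotlib 3.10.9.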

Additional observations from a re-analysis of the deposited data

How the results depend on the processing

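No setting that was run gave any of the 26 genes an adjusted p under 0.05 (0 in each). The cause of the shifts below was not tested. All genes with an adjusted p under 0.05 numbered 79, and 707 with DESeq2, 21 with library size alone, 52 with upper-quartile factors, 888 with no filter on low counts and 10 to 333 leaving out 1 mouse. Genes with an unadjusted p under 0.05 numbered 1905, 2440 with library size alone, 1397 with the acinar covariate, 2905 with no filter, and 1404 to 2703 leaving out 1 mouse. For the 26 genes this count was 4, 8 with library size alone, 2 with the acinar covariate and 1 to 6 leaving out 1 mouse. Their median was -0.09, -0.69 with library size alone and -0.26 to -0.0092 leaving out 1 mouse. The Tm7sf2 share differed by -6.16 to 1.04 percentage points leaving out 1 mouse.

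Libraries with the same replicate number did not deviate from their group means in the same direction (correlations -0.53, -0.20 and -0.32). These correlations cannot show whether the mice of a number were paired. With the number as a replicate block the counts were 16 and 1128 of all genes and 0 of the 26 genes.

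Of 390 log2 fold changes of single genes under an alternative, 36 in 15 genes changed sign. With library size alone these were Mvk (-0.46), Fdft1 (-0.23), Nsdhl (-0.59), Hsd17b7 (-0.44), Sc5d (-0.21), Dhcr7 (-0.49) and Mbtps2 (-0.077). With the acinar covariate these were Pmvk (0.41), Fdps (0.032), Cyp51 (0.30), Tm7sf2 (0.11), Nsdhl (-0.18), Sc5d (-0.068), Srebf2 (0.026) and Mbtps2 (-0.19). With upper-quartile factors Cyp51 was at 0.014, and with the replicate block Mvd was at 0.015 and Nsdhl at -0.066. Leaving out 1 mouse gave ranges across 0 for Mvk (-0.12 to 0.30), Pmvk (-0.42 to 0.28), Mvd (-0.37 to 0.35), Fdps (-0.63 to 0.0073), Ggps1 (-0.24 to 0.10), Cyp51 (-0.21 to 0.26), Lbr (-0.33 to 0.13), Nsdhl (-0.22 to 0.40) and Dhcr7 (-0.17 to 0.45).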

Other observations

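Other marker lists give the setting of these libraries. All 20 immediate-early genes, which respond within minutes to stimulation or handling, had a lower level in db/db (median log2 fold change -2.45), 16 with an unadjusted and 10 with an adjusted p under 0.05 by edgeR, and their summed level was 144 to 272 CPM in db/db against 1273 to 2223 CPM in db/m libraries. All 13 β-cell markers were lower (median -2.78), 10 with an unadjusted and 4 with an adjusted p under 0.05 by edgeR. For comparison, edgeR gave 9.89% of all tested genes a lower level with an unadjusted p under 0.05. It gave 0.619% of them an adjusted p under 0.05 in either direction. Of 27 acinar markers 1 was lower, and the median was 0.69. Of 10 stromal markers 1 was lower (median 0.96), and of 8 duct markers 2 were (median 0.49). The medians were -0.49 for 8 endothelial, 0.05 for 8 leukocyte, -0.93 for 7 other endocrine and -0.67 for 2 adipocyte markers. Single libraries stood out in the summed levels. Other endocrine markers had 1834 CPM in db/m replicate 1 and 487 and 296 CPM in db/m replicates 2 and 3. In db/db libraries they had 398 to 834 CPM. Adipocyte markers had 98.5 CPM in db/m replicate 2 and 6.46 and 3.57 CPM in db/m replicates 1 and 3. In db/db libraries they had 5.98 to 28.9 CPM. The part of these lists in the values of the sterol genes was not tested, and the fit with the acinar covariate cannot tell acinar content from genotype.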
